A study of Mus musculus with 8 samples.

Results

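The 42 genes described here encode the machinery that brings glucose into a cell and works it up: glucose and lactate transporters, the enzymes of glycolysis, the regulators of pyruvate entry into mitochondria, the enzymes of glycogen, and the pentose phosphate branch. They were taken as a fixed list of symbols, and every non-control probe whose RefSeq accession belongs to a listed gene was used. The list matched 65 probes. Of these, 59 passed the filter on dim probes and 58 had a value in all 3 replicates, so that all 42 genes were measured, among 12000 named genes with a tested probe. For 41 of the 42 genes the probe with the highest mean intensity, which represents the gene below, was well above background on all 8 arrays in both genotypes. The exception was Tigar, well above background on 8 arrays in the null channel and on 5 in the wild-type channel.

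The study set p53 null against p53 wild-type kidneys of mouse embryos at embryonic day 15.5, both on the C57BL/6 strain; the labels name no other allele and no treatment. Each of 8 arrays of the Agilent 2-colour type carried null RNA in one dye and wild-type RNA in the other. Replicate 1 had 4 arrays (2 with null in Cy5, 2 with null in Cy3) and replicates 2 and 3 had 2 arrays each, 1 per dye orientation. The file headers place replicate 1 on slide 1 and replicates 2 and 3 on slide 2. The sources used here do not give the p53 allele, the litters or the number of embryos behind each RNA, so p-values measure only the spread between these RNAs. Each value below is a log2 ratio, null divided by wild type, averaged over the dye orientations of a replicate, so that 0 is equal signal and a negative value is a lower signal in null. The kidney markers Six2, Pax2, Pax8, Wt1, Cited1, Gata3, Foxd1, Nphs1 and Cdh16 were well above background on all 8 arrays in both channels, while Ret, a ureteric tip marker, was so on 0 null and 1 wild-type channel.

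Glycolysis splits glucose to pyruvate in the cytosol and yields ATP and NADH without oxygen. Lactate dehydrogenase can turn pyruvate into lactate, which leaves the cell through monocarboxylate transporters, and pyruvate dehydrogenase sends pyruvate into the mitochondrion unless its kinases switch it off. The pentose phosphate pathway branches off at glucose 6-phosphate and gives NADPH and ribose for growing cells. Many steps have several genes, of which one often answers to the hypoxia-inducible factors (HIF) and another is kept at a steady level or belongs to muscle, brain or liver. p53 is known to act on the pathway at several points, Tigar being one of its target genes. In the embryonic kidney, progenitors of the nephron are known to rely on glycolysis.

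Since members of one step moved apart in these arrays, their promoters are shown for a few pairs, chosen after the values were seen: Slc16a3 beside Slc16a1, Ldha beside Ldhb and Pdk1 beside Pdk2, with Slc2a1 and Pgk1. The letters searched were ACGTG and GCGTG on both strands, which are the core of the element that HIF binds, and CACGTG, the E-box, which holds ACGTG on both strands and so counts as 2 cores. RefSeq's promoter table (GRCm38.p6) held 41 of the 42 genes, Slc2a3 being the one without an entry. Within 250 bases upstream of a start, 34 of 41 members (82.9%) held at least 1 core, against 41.5% of 27025 genes in the table and 38.6% of 32851 promoters. The E-box stood in 6 of 41 members (14.6%) and in 6.86% of all genes. Each line gives the 100 bases of the upstream stretch with the most cores, 5′ to 3′ on the gene's strand, with the cores in capitals.
Slc2a1, GRCm38.p6 chr4:119108645-119108744, plus strand: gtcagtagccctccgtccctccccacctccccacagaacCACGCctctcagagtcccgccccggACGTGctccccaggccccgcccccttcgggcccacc
Slc16a3, GRCm38.p6 chr11:120948967-120949066, plus strand: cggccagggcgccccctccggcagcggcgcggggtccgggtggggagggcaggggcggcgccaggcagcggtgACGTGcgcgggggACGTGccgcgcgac
Pgk1, GRCm38.p6 chrX:106186950-106187049, plus strand: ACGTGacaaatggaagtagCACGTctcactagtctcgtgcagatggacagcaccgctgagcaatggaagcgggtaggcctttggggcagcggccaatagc
Ldha, GRCm38.p6 chr7:46845704-46845803, plus strand: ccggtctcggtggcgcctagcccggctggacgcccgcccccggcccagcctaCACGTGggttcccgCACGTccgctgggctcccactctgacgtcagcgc
Pdk1, GRCm38.p6 chr2:71873124-71873223, plus strand: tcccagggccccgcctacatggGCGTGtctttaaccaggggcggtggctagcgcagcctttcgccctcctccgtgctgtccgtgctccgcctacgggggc
Slc16a1, GRCm38.p6 chr3:104638464-104638563, plus strand: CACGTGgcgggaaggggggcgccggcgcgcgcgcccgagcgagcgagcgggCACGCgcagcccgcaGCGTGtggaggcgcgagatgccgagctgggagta
Ldhb, GRCm38.p6 chr6:142507988-142508087, minus strand: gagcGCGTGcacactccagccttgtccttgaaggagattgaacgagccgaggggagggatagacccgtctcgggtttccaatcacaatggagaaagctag
Pdk2, GRCm38.p6 chr11:95041402-95041501, minus strand: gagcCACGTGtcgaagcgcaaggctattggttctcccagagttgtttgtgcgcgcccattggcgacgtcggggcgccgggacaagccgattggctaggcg
In this set the windows of Slc16a3 and Slc16a1 both hold cores, although the log2 ratios of these genes on slide 2 differed by 2.92. The Ldha window has an E-box with a further core beside it, while the 250 bases it was taken from hold 5 cores, counting those of 2 E-boxes. The Ldhb window has a single core, and the Pdk2 window holds an E-box where the Pdk1 window has 1 GCGTG. Among the 19 members that were below −1 in both replicates of slide 2, 18 had a promoter in the table and 14 (77.8%) held a core. Of the other 23 members, 20 (87.0%) did. By single motif the shares ran opposite ways: ACGTG stood in 9 (50%) of the 18 and 8 (34.8%) of the 23, and GCGTG in 10 (55.6%) and 18 (78.3%). A core is a match of letters and no evidence of binding, and these shares were not tested.

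The 3 replicates were not alike. Over 18196 probes well above background on every array, the wild-type channels of replicates 2 and 3 differed by an SD of 0.135 to 0.139 (log2), which is no more than the 0.150 to 0.175 between repeat arrays of the same wild-type RNA of replicate 1. Their null channels differed by 0.183 to 0.204, against 0.134 to 0.186 between repeat arrays. Replicates 2 and 3 may thus share 1 wild-type RNA, and then their ratios share a control and their spread is smaller than that of separate kidneys. Between the slides either channel differed by 0.766 to 0.870. Slide, scan and RNA cannot be told apart here, so each member is given for replicate 1 and for replicates 2 and 3 separately.

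On slide 2 the glycolytic genes were among the lowest ratios of the whole array, and on slide 1 they were not. The median member stood at −0.066 in replicate 1, at −1.01 in replicate 2 and at −0.83 in replicate 3, where the medians of all 12000 genes were −0.019, 0.025 and 0.03. Of the 42 members, 19 were below −1 in both replicates of slide 2, against 1.34% of all genes. Ranked from the lowest ratio on slide 2, 4 members stood among the lowest 10 of 12000 genes, 12 among the lowest 50 and 17 among the lowest 100. In replicate 1, 0 members stood among the lowest 100, and the lowest member, Gapdh, had rank 117. In bulk tissue a smaller number of cells of one type and less RNA per cell cannot be told apart.

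**Figure D1:**
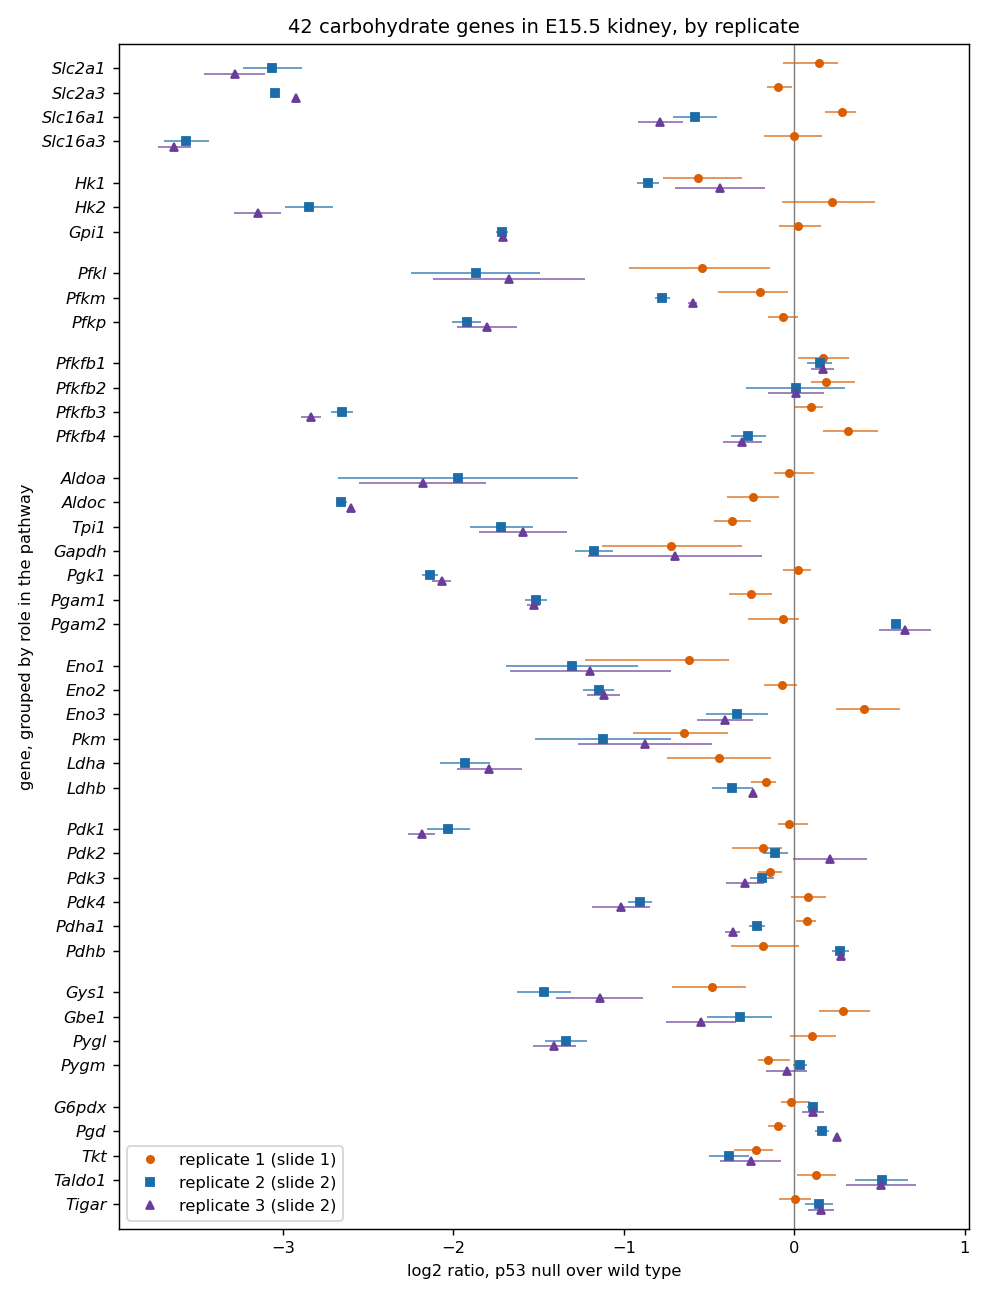
The plot shows the log2 ratio of null over wild type (horizontal axis) for the 42 members, grouped by role from transport at the top to the pentose phosphate branch at the bottom. Symbols are replicate values and lines span the lowest to the highest array of a replicate; replicates 2 and 3 sit close together and far to the left for 19 members, while replicate 1 stays between −0.72 and 0.41.

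Over all 3 replicates, limma called 0 of the 58 tested member probes and 0 of all 20865 tested probes (0% called, Benjamini-Hochberg adjusted p under 0.05, smallest adjusted p 0.279 in limma's fit). With the slide as a fixed block the members' median was −0.60. Slide 1 holds 1 replicate, so the spread of that fit is only that between replicates 2 and 3, and its calls are not counted here. With the replicate as a random block over the 8 arrays, limma called 18 members and 1132 probes. That fit also draws on repeat arrays of the same RNA. At an unadjusted p under 0.05 there were 3583 probes in limma's fit. By gene, 34 members had a mean below 0 and 8 above. Without adjustment, 23 members were lower at p under 0.05, against 8.93% of all genes, and 1 was higher, Taldo1, against 9.24%. Leaving out replicate 2 or replicate 3 brought the 23 to 8 each. Leaving out replicate 1 brought the members called from 0 to 36 and the probes from 0 to 11699, a fit whose spread is only that between replicates 2 and 3. Median centring in place of loess shifted the median of all genes to −0.13, 0.29 and 0.35 in the 3 replicates. Relative to the median of all genes, the members' median was −0.057, −0.98 and −0.72 then, against −0.046, −1.04 and −0.86 with loess, and 34 members lay below that median by mean under either. Without that reference, the means of Pfkfb4, Eno3, Ldhb, Pdk2, Pdha1, Gbe1 and Tkt turned above 0 under median centring. Of the 42 members, 20 were lower in all 3 replicates, against 19.7% of all genes, and 4 were higher in all 3 (Pfkfb1, Pfkfb2, Taldo1 and Tigar), against 20.4%.

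The transporters held 3 of the 4 lowest member ratios of slide 2. Slc2a1 (GLUT1), the glucose carrier of most growing cells, had log2 ratios of 0.14, −3.06 and −3.28 in replicates 1, 2 and 3, the order in which triplets of values are given from here on. Slc2a3 (GLUT3), a glucose carrier of high affinity best known from neurons, had −0.098, −3.05 and −2.92. Both carriers were thus near equal between genotypes on slide 1 and on slide 2 lower in null by 9.02-fold and 7.92-fold. Slc16a3 (MCT4), which exports lactate from strongly glycolytic cells, had −0.0045, −3.57 and −3.64, a signal on slide 2 that was 12.1-fold lower in null and the second lowest of all 12000 genes. The 4 arrays of replicate 1 held Slc16a3 between −0.18 and 0.16 and the 4 arrays of slide 2 between −3.73 and −3.44, with no overlap. Slc16a1 (MCT1), which carries lactate both ways, had 0.28, −0.58 and −0.79, higher in null on slide 1 and lower on slide 2. Its mean over the replicates was −0.36 ± 0.56 (SD, n = 3), a spread larger than the mean. Bsg, the chaperone that brings both lactate carriers to the cell surface and no member of the list, had −0.47, −0.65 and −0.64, lower in each replicate and of like size on both slides.

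Hexokinase, which traps glucose in the cell as its 6-phosphate, is encoded here by Hk1, found in most tissues, and by Hk2, the inducible gene of muscle, fat and fast-growing cells. Hk1 had −0.57, −0.86 and −0.44, with all 8 arrays below 0. Hk2 had 0.22, −2.85 and −3.15. Hk1 was moderately low in each replicate, whereas Hk2 was slightly higher in null on slide 1 and 7.99-fold lower on slide 2, so that the order of the 2 genes turned between the slides. Hk1's second probe read −0.51, −0.84 and −0.43, like the first, and its 3 other probes failed the filter. Gpi1, glucose phosphate isomerase, which makes fructose 6-phosphate, had 0.023, −1.72 and −1.71, equal on slide 1 and 3.28-fold lower in null on slide 2.

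Phosphofructokinase commits sugar to glycolysis and is built from liver (Pfkl), muscle (Pfkm) and platelet (Pfkp) subunits. Pfkl had −0.54, −1.87 and −1.67. Pfkm had −0.20, −0.77 and −0.60. Pfkp had −0.065, −1.92 and −1.80. All 3 subunits were lower in null in all 3 replicates, the liver subunit also on slide 1 and the platelet subunit only slightly so there. On slide 2 Pfkl and Pfkp stood together, 3.42-fold and 3.64-fold lower, and Pfkm nearer to 0. The value of Pfkp depends on its probe: a second, dimmer probe, above background on 5 null and 6 wild-type channels, read −0.22 and −0.30 on slide 2.

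The PFKFB enzymes make and break fructose 2,6-bisphosphate, the strongest activator of phosphofructokinase, and only 1 of 4 stood far from 0. Pfkfb3, the form with the highest kinase activity and inducible by hypoxia, had 0.098, −2.65 and −2.84, 6.70-fold lower in null on slide 2. Its 2 other probes were dim and passed the filter through wild type. One was well above background on 7 wild-type channels and 1 null channel, so its ratio is not given. The remaining probe was well above background on 7 wild-type channels and on 0 null channels, so its ratio is not given either. The size for Pfkfb3 thus rests on its bright probe. Pfkfb4, another inducible form, had 0.31, −0.27 and −0.31, above 0 on slide 1 and below it on slide 2. Pfkfb1, the liver and muscle form, had 0.17, 0.15 and 0.17, and Pfkfb2, the heart form, 0.18, 0.0078 and 0.0085. Pfkfb1 was slightly above 0 on all 8 arrays, with the same size on both slides.

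From aldolase to phosphoglycerate mutase, 5 of 7 genes were below −1 in both replicates of slide 2. Aldoa, the main aldolase outside liver, had −0.029, −1.97 and −2.18, and its second probe −0.24, −1.99 and −2.10. Aldoc, the brain form, had −0.24, −2.66 and −2.60. Both aldolases were low on slide 2, Aldoc by 6.19-fold and Aldoa by 4.22-fold, and Aldoc lay below 0 on all 8 arrays. Tpi1, which interconverts the 2 triose phosphates, had −0.37, −1.72 and −1.59. Pgk1, the first ATP-yielding step, had 0.021, −2.14 and −2.07. Tpi1 was lower in null on every array, while Pgk1 was equal on slide 1 and 4.30-fold lower on slide 2, and its second probe read 0.15 in replicate 1 and −2.04 on slide 2.

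Gapdh, which makes NADH at the next step, was the member with the lowest ratio on slide 1. It had −0.72, −1.18 and −0.70 and lay below 0 on all 8 arrays, with a mean of −0.87 ± 0.27 (SD, n = 3). The difference between the slides, −0.21 ± 0.14 (SE), did not pass limma's slide test (adjusted p = 0.237). Its second probe read −0.59, −0.79 and −0.78. Gapdh, often used as a reference gene, therefore was not level between the genotypes in these arrays, although its fold was smaller than that of its neighbours in the pathway on slide 2. Mouse Gapdh has many processed copies in the genome, from which the probes may not tell it apart. Pgam1, the widespread phosphoglycerate mutase, had −0.25, −1.52 and −1.53. Pgam2, the muscle form, had −0.066, 0.60 and 0.65. The 2 mutases moved apart on slide 2, Pgam1 2.87-fold lower in null and Pgam2 higher there.

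Enolase has 3 genes: Eno1 in most tissues, Eno2 in neurons and neuroendocrine cells, and Eno3 in muscle. Eno1 had −0.62, −1.30 and −1.20, lower in null on all 8 arrays. Eno2 had −0.072, −1.15 and −1.12. Eno3 had 0.41, −0.34 and −0.41. The order Eno1, Eno2, Eno3 from the lowest up was the same in each replicate. Eno1 has a near-identical copy in the mouse genome, Eno1b, so part of its signal may be that gene's. Pkm, pyruvate kinase of most tissues outside liver, had −0.65, −1.12 and −0.87, lower in null on all 7 arrays that measured it. Its mean was −0.88 ± 0.24 (SD, n = 3), and of the probes that represent the members Pkm's had the smallest unadjusted p in limma's fit. That p was 0.00132 in limma and 0.279 after adjustment over all probes.

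Ldha, the lactate dehydrogenase subunit that favours lactate, had −0.44, −1.93 and −1.79, and its second probe −0.10, −1.96 and −2.14. Ldhb, the heart subunit that favours pyruvate, had −0.17, −0.36 and −0.24. Both were below 0 on all 8 arrays, but Ldha was 3.63-fold lower on slide 2 and Ldhb 1.23-fold. Ldhb did not differ between the slides past limma's slide test (−0.13 ± 0.12 (SE), adjusted p = 0.398).

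Pyruvate dehydrogenase and its kinases showed 1 low kinase beside steadier partners. Pdk1, the kinase that HIF is known to induce, had −0.031, −2.03 and −2.19, 4.31-fold lower in null on slide 2. Pdk4, the starvation kinase, had 0.078, −0.91 and −1.02, in the same direction with a smaller size. Pdk2, the kinase present in most tissues, had −0.19, −0.11 and 0.21, and Pdk3 had −0.14, −0.19 and −0.29. Pdk3 was slightly below 0 on all 8 arrays, and Pdk2 had no steady sign. The target of the kinases, the E1 enzyme, was nearly level: Pdha1, its alpha subunit, had 0.075, −0.22 and −0.36. Pdhb, the beta subunit, had −0.18, 0.27 and 0.27. The 2 subunits leaned opposite ways on each slide, and turned places between the slides.

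Among the glycogen genes, Gys1, the glycogen synthase outside liver, had −0.49, −1.47 and −1.14, lower in null on all 8 arrays. Pygl, the liver glycogen phosphorylase, had 0.10, −1.34 and −1.41, and Pygm, the muscle form, −0.16, 0.033 and −0.046. Synthesis and breakdown genes were thus both low on slide 2 (Gys1 2.47-fold, Pygl 2.59-fold), while Pygm stood near 0 throughout. Gbe1, the branching enzyme, had 0.29, −0.32 and −0.55, above 0 on the arrays of slide 1 and below 0 on those of slide 2.

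The pentose phosphate branch did not share in the low ratios of slide 2. G6pdx, its entry enzyme, had −0.021, 0.11 and 0.11. Pgd, the second NADPH-yielding enzyme, had −0.097, 0.16 and 0.25. Both were close to level, with the spread between arrays of a replicate about as large as the ratio for G6pdx; a second Pgd probe read −0.61 in replicate 1, well below its first. Taldo1, transaldolase, had 0.13, 0.51 and 0.51, higher in null on all 8 arrays (mean 0.38 ± 0.22, SD, n = 3). The adjusted p of Taldo1 in limma's fit was 0.279. Tkt, transketolase, had −0.23, −0.38 and −0.26, lower in null on all 8 arrays. Its second probe read 0.066 on slide 2. Of 15 genes with more than 1 kept probe, Tkt was the 1 whose probes differed in the sign of the mean over the 3 replicates. On slide 2 alone the probes of Pfkfb2 also differed in sign, at −0.026 and 0.0081. Tigar, which lowers fructose 2,6-bisphosphate and so turns sugar toward this branch, had 0.0032, 0.14 and 0.16. Tigar, a known p53 target, was dim in both genotypes and was not lower in null in any replicate. The median of these 5 genes on slide 2 was 0.15, where the 4 transporters had −3.08, phosphofructokinase −1.77 and the genes from aldolase to mutase −1.66.

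Within the steps that have several genes, 26 pairs were compared by the difference of their log2 ratios. With 3 replicate values the smallest p that an exact two-sided sign permutation allows is 0.25, which was the smallest p reached (adjusted over the 26 pairs 0.542), so the pairs are a description. In 13 pairs the difference was over 1 in both replicates of slide 2, and in 1 it was over 1 in replicate 1, Eno1 minus Eno3. That pair was steady over the study, with −1.03, −0.97 and −0.79 (mean −0.93 ± 0.12, SD, n = 3). Of the 26 pairs, 12 kept one sign in all 3 replicates and 5 kept it on all 8 arrays: Slc16a1 with Slc16a3, Pfkl with Pfkm, Pfkfb3 with Pfkfb4, Eno1 with Eno3 and Eno2 with Eno3. Pfkl minus Pfkm was −0.34, −1.10 and −1.08.

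Other pairs were wide apart on slide 2 alone. Hk1 minus Hk2 gave −0.79, 1.99 and 2.71 in replicates 1 to 3, a change of sign. Pdk1 minus Pdk2 was 0.16, −1.92 and −2.40, and Pygl minus Pygm was 0.26, −1.37 and −1.36, both with the sign turned between slides. Ldha minus Ldhb was −0.27, −1.57 and −1.55. Pgam1 minus Pgam2 was −0.19, −2.11 and −2.18. Both kept their sign and were small on slide 1. Among pairs with both genes low on slide 2, Slc2a1 minus Slc2a3 was 0.24, −0.016 and −0.36. Pfkl minus Pfkp was −0.48, 0.053 and 0.13, and Eno1 minus Eno2 −0.55, −0.16 and −0.077. These 3 pairs lay close together on slide 2.

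**Figure D2:**
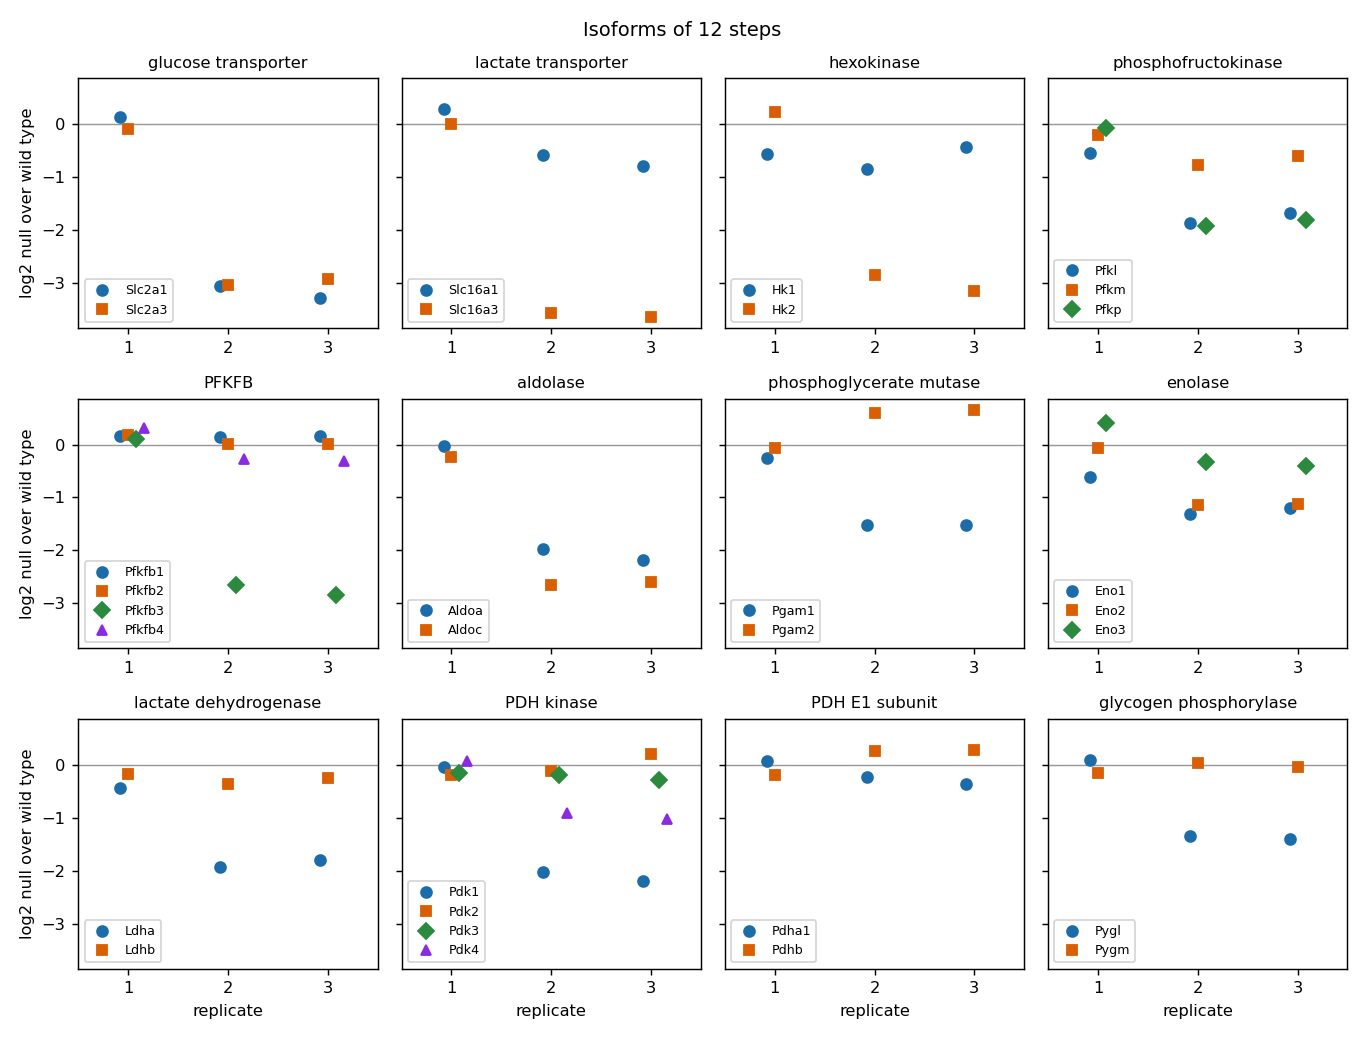
Each panel plots the log2 ratio of null over wild type (vertical axis) of the genes of one step against the replicate (horizontal axis), 1 point per gene and replicate. One gene of a step lies far below the other in replicates 2 and 3 for the lactate transporters, hexokinase, PFKFB, mutase, lactate dehydrogenase, the PDH kinases and glycogen phosphorylase, and the glucose transporters lie together.

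The difference between the slides was tested for each probe with a slide term in limma, whose spread is that between replicates 2 and 3 only. Slide 1 holds replicate 1 alone, so that a difference between slides cannot be told apart from one between kidneys, and if replicates 2 and 3 share a wild-type RNA, the p-values are too small. The ratio was lower on slide 2 for 27 members past an adjusted p of 0.05, against 19.3% of all genes, and higher for 4 (Pgam2, Pdhb, Pgd and Taldo1), against 28.6%. The median difference between slides over the members was −0.75 and over all genes 0.054. Under median centring these were −0.14 and 0.48, so that the members' difference relative to all genes was −0.62 there and −0.81 with loess. The largest was that of Slc16a3, −3.60 ± 0.12 (SE), and then those of Slc2a1 (−3.31) and Hk2 (−3.22). The 11 members not called were Hk1, Gapdh, Ldhb, Pfkfb1, Pfkfb2, Pdk2, Pdk3, Pygm, G6pdx, Tkt and Tigar. Of these, Hk1 (difference −0.08 ± 0.14, SE, adjusted p = 0.677) and Gapdh were low on both slides, and the replicate values of the others lay between −0.38 and 0.21.

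In replicate 1 the signs of the members were near the background: 17 of 42 were below 0 on all 4 arrays, against 32.3% of all genes, and 8 above 0 on all 4, against 23.6%. Replicate values below −0.5 were found for 5 of 42 members, against 4.79% of all genes: Gapdh, Pkm, Eno1, Hk1 and Pfkl, each of which also was below 0 on the arrays of slide 2. None of the 42 was below −0.5 on every array of replicate 1, a mark that 1.16% of all genes met. The 4 genes with the lowest ratios of slide 2, Slc16a3, Slc2a1, Hk2 and Slc2a3, had values in replicate 1 from −0.098 to 0.22. In all, 14 of 42 members were below 0 on all 8 arrays, against 7.91% of all genes, and 2, Pfkfb1 and Taldo1, above 0 on all 8, against 7.58%.

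**Figure D3:**
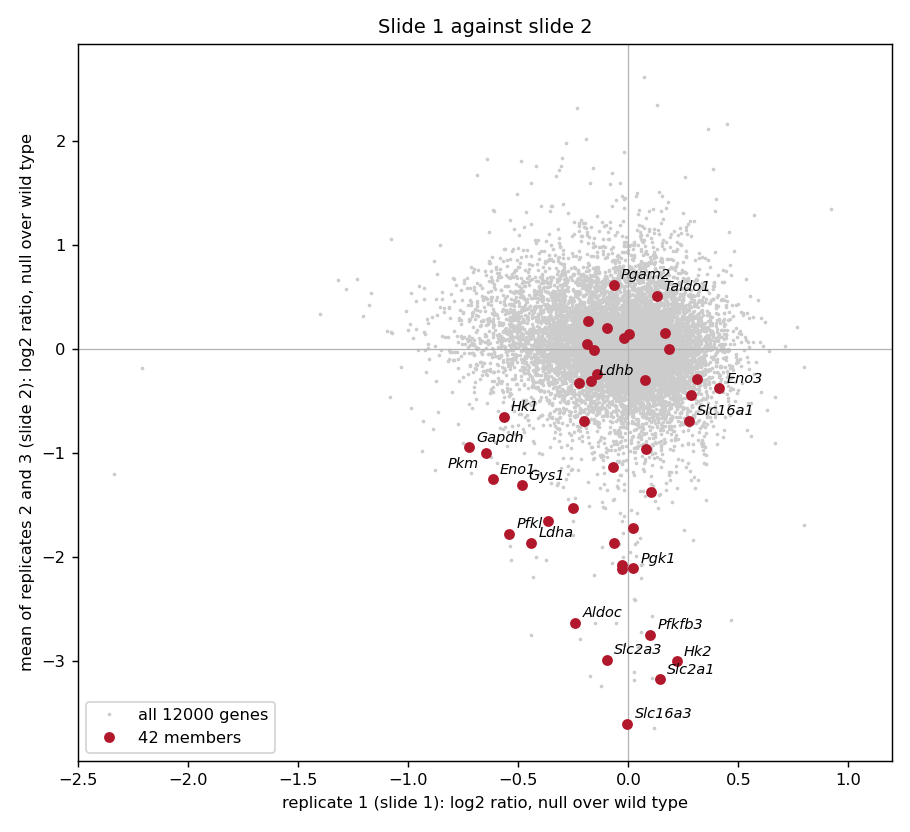
Each point is a gene, with its log2 ratio of null over wild type in replicate 1 (slide 1) on the horizontal axis and the mean of replicates 2 and 3 (slide 2) on the vertical axis; the 42 members are red and all 12000 genes grey. The members reach down to −3.60 on slide 2 while they stay within −0.72 and 0.41 on slide 1, and the 5 below −0.5 on slide 1 lie at the left end of a continuous spread.

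The levels of each genotype were also set side by side between the slides. In them a slide or scan effect cannot be told apart from a difference between RNAs. Levels of the 2 genotypes were taken as log2 signal after the mean intensities were set to one distribution over all arrays, so each value below is one probe compared with itself, and dye bias is balanced by the swaps. The wild-type level of Slc16a3 was 4.93 higher on slide 2 than on slide 1, and its null level 1.33 higher. Slc2a3 was 4.02 higher in wild type and 1.13 in null, and Aldoc 3.37 and 0.98. For these genes both genotypes read higher on slide 2, wild type far more. Slc2a1 was 2.84 higher in wild type, with a difference of −0.48 in null, and Hk2 was 2.11 higher in wild type, with −1.11 in null. Pdk1 was 2.32 higher in wild type with 0.24 in null. For Slc2a1 and Hk2 the null level also was lower on slide 2, but the wild-type difference was the larger one for all 6 genes.

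Over all members, the wild-type level was more than 1 (log2) higher on slide 2 for 21 of 42, against 7.67% of all genes, and the null level for 2, Slc2a3 and Slc16a3, against 6.97%. The median member was 1.01 higher in wild type and 0.25 in null, where all genes had 0.15 and 0.26. The 19 members with ratios below −1 had a median of 1.76 in wild type and 0.24 in null. The other 23 had 0.44 and 0.30. The gap between a gene's 2 differences equals its replicate 1 ratio minus its slide-2 ratio. A wide gap in the 19 thus follows from how they were chosen. On this scale the low ratios of slide 2 went with a higher wild-type reading of these genes on that slide, in what may be 1 wild-type RNA, and a null reading nearer to that of slide 1.

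**Figure D4:**
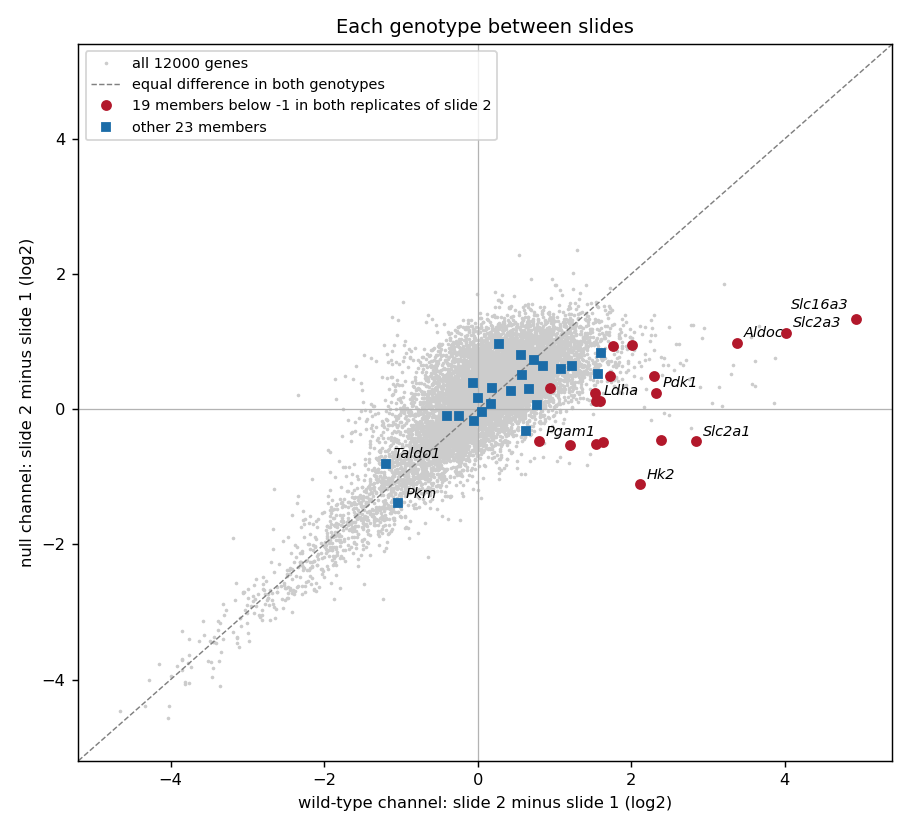
Each point is a gene, with the difference of its wild-type level between the slides (slide 2 minus slide 1, log2) on the horizontal axis and that of its null level on the vertical axis; the dashed line marks an equal difference in both genotypes. The 19 members below −1 on slide 2 (red) lie to the right of the line, with wild-type differences up to 4.93. The other 23 members (blue) lie nearer to it by median, although the groups overlap. A gene's horizontal distance from the line is its replicate 1 ratio minus its slide-2 ratio. The choice of the 19 by a low slide-2 ratio thus puts them on that side, as none was below −0.62 in replicate 1.

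Other carbohydrate genes went both ways. Of 83 listed genes of sugar transport, gluconeogenesis, glycogen, the pentose phosphate pathway and pyruvate handling, 78 were on the array and 61 were tested. limma called 0 of the 61, with 15 lower and 3 higher at an unadjusted p under 0.05, against 8.93% and 9.24% of all genes. The middle gene of the 61 stood at −0.058 on slide 1 and −0.095 on slide 2, and 1 of the 61 was below −1 in both replicates of slide 2 and 3 above 1, a mark that 1.1% of all genes met and no member. Those named here, Pgm1, Gpd1 and Fbp1, were singled out after their values were seen. Pgm1, a phosphoglucomutase gene, had 0.024, −2.36 and −2.45, within the range of the low members. Gpd1, a glycerol phosphate dehydrogenase, had −0.19, 1.86 and 2.19. Fbp1, the gluconeogenic fructose bisphosphatase, had −0.69, 1.39 and 1.97. Both were higher in null on slide 2; liver markers also were higher in null there (list median 0.78), and their part was not tested. Hkdc1, a hexokinase-like gene, had 0.018, −0.60 and −0.77. It leaned the way of Hk2 with a smaller size. Ppp1r3c, which brings phosphatase to glycogen, had −0.11, −0.84 and −0.96. Stbd1, which tethers glycogen to membranes, had −0.22, −0.95 and −0.76. Gaa, the lysosomal enzyme that breaks glycogen down, had −0.50, −0.96 and −0.49. These 3 glycogen genes were below 0 in each replicate, as Gys1 was, while Pygl was above 0 on slide 1. For Ppp1r3c the sign in replicate 1 followed the dye, with 0.15 and 0.24 for null in Cy5 and −0.42 on both arrays with null in Cy3.

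The sugar-handling genes Galk1 (galactokinase) and Sord (sorbitol dehydrogenase) had slide-2 means of −0.92 and −0.54, and H6pd, which makes NADPH in the endoplasmic reticulum, −0.69. The glucose carriers Slc2a2 and Slc2a5 were slightly higher in null in each replicate, with slide-2 means of 0.33 and 0.27, and Slc2a8 lower at −0.56. Bpgm, which makes 2,3-bisphosphoglycerate in red cells, had −0.053, 0.84 and 0.95, opposite to Pgam1 and Pgk1 next to it in the pathway. The remaining genes taken from these lists for their small p, Galm, Pck2, Phkg2, Pdp1, Shpk, Rbks and Rpe, had slide-2 means between −0.52 and 0.41.

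Genes that HIF is known to induce outside glycolysis read like the low members. Of 20 such genes, all 20 had a mean below 0 and 17 were below −1 in both replicates of slide 2, against 1.34% of all genes. Their medians were −0.048 for replicate 1 and −1.58 for slide 2. Bnip3, a mitophagy receptor, had 0.12, −3.52 and −3.77, the lowest slide-2 mean of all 12000 genes, just below Slc16a3. The list was drawn up with earlier results of these arrays known, so its direction is no independent evidence. The 19 genes of the tricarboxylic acid cycle, which burns the pyruvate that glycolysis makes, had medians of −0.01 for replicate 1 and 0.085 for slide 2, with 8 lower and 11 higher by mean. limma called 0 genes of either list. At an unadjusted p under 0.05 in limma's fit, 16 of the HIF list were lower, against 8.93% of all genes, and 2 of the cycle were higher, against 9.24%.

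Of the factors known to control glycolysis, Ppargc1a had the lowest slide-2 mean and Hif1a was higher in null on the 4 arrays of slide 1. Hif1a, the oxygen-regulated subunit of HIF, which is controlled mainly as protein, had 0.41, 0.06 and −0.074, a difference between the slides past limma's slide test (adjusted p = 0.00603). Epas1 (HIF2 alpha) had −0.011, −0.22 and −0.25, and Myc, which drives many glycolytic genes, −0.067, 0.18 and 0.085. The other kept Myc probes read −0.13, 0.21 and 0.17, and −0.24, 0.15 and 0.034, each below 0 on all 4 arrays of slide 1. Arnt, Hif1an, Mycn, Mlxip and Mlxipl had slide-2 means between −0.38 and 0.15, and a second Mycn probe was below 0 on all 8 arrays (mean −0.35). The mitochondrial coactivator Ppargc1a had 0.11, −0.75 and −0.60 (slide test in limma, adjusted p = 5.79e-06). The brighter of 2 Trp53 probes had −1.08, −0.47 and −0.45, and the other a mean of 0.16. The sources used here do not name the deleted stretch, so the probes do not check the labels.

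Other cell types moved with slide 2 as well. Of 6 tested erythroid markers, 5 were higher in null on slide 2 and 1 in replicate 1, and the list medians were −0.31 and 1.41 for slides 1 and 2. Hbb-bt, an adult-type globin, had −0.31, 1.61 and 1.92, while Hbb-y, the embryonic globin, had 0.46, −2.44 and −2.76. The summed erythroid level (linear, after scaling) ranged over the arrays of slide 2 from 71030 to 95458 in wild type and from 163419 to 199945 in null, and on slide 1 from 147744 to 192522 and from 125961 to 135075. So the genotype with the higher erythroid sum turned between the slides. The 4 tested liver markers all were higher in null on slide 2, with a sum of 1580 to 1715 in wild type and 4034 to 4885 in null, against 2967 to 3074 and 2302 to 2522 on slide 1. All 5 macrophage markers were higher in null on slide 2, and 4 of them were so on all 8 arrays. The sum of the 5 on slide 2 was 1711 to 1849 in wild type and 2748 to 3316 in null. On slide 1 it was 1717 to 1874 and 1924 to 2134. The part of these cell types in the members' ratios was not tested. Of the skeletal muscle list, Ckm was well above background on 0 channels, but Myh3, Myh8, Actn3, Tnnc2, Tnni2, Mylpf and Acta1 were so on all 8 arrays in both genotypes. Tnnc2, Tnni2 and Mylpf were higher in null on all 8 arrays, with slide-2 means of 0.32, 0.44 and 0.34. Myh8 was lower in null on all 8 arrays, with a slide-2 mean of −0.32, and Actn3 was lower in each replicate. By mean, 4 of the 7 tested muscle markers were lower in null and 3 higher, and the list median on slide 2 was −0.00068. The neuron and glia list had a slide-2 median of 0.21, with 4 of 6 tested markers higher in null there. The values ran from Elavl4 at −0.31 to S100b at 0.89, and Stmn2 stood at −0.12.

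Markers of kidney cell types moved both ways with slide 2, around a list median of −0.064. Foxd1, of stromal progenitors, had 0.13, −0.56 and −0.92, its second probe less on slide 2, and Gata3, of the collecting duct, 0.11, −0.63 and −0.71. The nephron progenitor genes leaned apart, Six2 with a slide-2 mean of −0.45 and Cited1 with 0.48. Nphs1, of podocytes, turned from −0.40 on slide 1 to 0.40. Each of these 5 differed between the slides past limma's slide test, and their part in the members' ratios was not tested.

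The sexes of the RNAs also differed. Xist, transcribed from the inactive X, was well above background in all 8 wild-type channels but in null only on the 2 arrays of replicate 2, and the Y-linked genes Eif2s3y, Ddx3y and Kdm5d were so in null in replicates 1 and 3 and not in replicate 2; Ddx3y was so on 2 wild-type channels too. Of the 5 members on the X chromosome, Pgk1 alone was below −1 on slide 2, with −2.14 in replicate 2 and −2.07 in replicate 3. Pfkfb1, Pdk3, Pdha1 and G6pdx stayed within −0.36 and 0.17 in replicate 3.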

How the data were processed

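Kidney RNA of 3 replicates, biological per the labels, was hybridised on 8 arrays with dye swaps, from 0.5 µg of total RNA labelled directly as cDNA. Deposited scanner output gives median spot and background intensities; the program was Agilent Feature Extraction, version 10.5.1.1 by the authors' file headers and version 6.1 by the submitters' processing notes. The authors' deposited value table holds log10 ratios that equalled the program's own, turned to null over wild type, within 4.94e-06.

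Median intensities were background-corrected by normexp (offset 50) and loess-normalized within arrays in limma 3.58.1 (R 4.3.3), with control spots at weight 0 and outlier spots left out. Within a replicate each dye orientation was averaged first, then both orientations. Probes stayed in if one genotype, the same in all 3 replicates, exceeded background by the program's flag on 50% or more of each replicate's arrays, which kept 20880 of 41174; 20865 were tested. With an offset of 50, ratios of dim probes are pulled toward 0, and the number of arrays limits the precision.

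Probes were named through RefSeq accessions in the GRCm38.p6 annotation (25097 of 41174 named); the headers give another build for the array design, so no probe coordinates are printed. The 3 replicate values were tested against 0 with limma (two-sided, Benjamini-Hochberg over all tested probes, 4.22 degrees of freedom). The slide term was tested in the same way with 28.4 degrees of freedom, nearly all of them borrowed across probes by limma. Both fits take the 3 replicates as independent, although replicates 2 and 3 may share a wild-type RNA. Named are every member, the 4 genes of each other carbohydrate list with the smallest p, regulators and Trp53, except what is not reported here; Bnip3, Pgm1, Gpd1, Fbp1, single cell type markers and the promoters shown were chosen after their values were seen. Members and lists were chosen with earlier results of these data known. Background correction, signal, scaling, filter, dye, probe choice, slide block and left-out replicates were varied.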

Additional observations from a re-analysis of the deposited data

Results flagged for a closer look

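Over the 8 arrays, 43 measures (42 members and their median) were searched for an array that stood apart from the others by Dixon's criterion, and 2 were found, where chance gives about 1 in 20. Ldhb read −0.48 on the array of replicate 2 with null in Cy3, the lowest of its 8 values. Pdk2 read 0.43 on the array of replicate 3 with null in Cy3, the highest of its 8 values and the main source of its positive value in that replicate.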

How the results depend on the processing

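Alternatives for background, signal, scaling, filter, outlier spots, dye orientation and probe choice left the probes and members called at 0. The fits that changed this were the following: slide as a fixed block called 8521 probes and 31 members, a fit of the 8 arrays with a random replicate effect 1132 and 18, and fits without one replicate from 0 to 11699 probes and from 0 to 36 members. One value per slide, an alternative added after seeing the data, called 0 of each and left 8 members lower at an unadjusted p under 0.05, against 23; no filter on dim probes left 15, and leaving out a replicate 8 to 32. Members lower in each replicate ranged from 21 to 32 then. The members' median difference between slides, −0.75, became −0.80 with offset 0, −0.73 without background subtraction, −0.78 with processed signals and with the deposited table, −0.78 with both genotypes above background, −0.81 and −0.78 with null in Cy5 or Cy3 only, and −0.14 with median centring, where the median of all genes moved as well.

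Means that changed sign were small. Under median centring they were 0.13 for Pfkfb4, 0.16 for Eno3, 0.041 for Ldhb, 0.11 for Pdk2, 0.072 for Pdha1, 0.063 for Gbe1 and 0.011 for Tkt. With null in Cy3 only, Pfkfb2 had −0.11, Eno3 0.058 and Pdk2 0.086. With the slide block and with 1 value per slide, Pfkfb4 had 0.013 and Eno3 0.020. Leaving out a replicate gave −0.29 to 0.022 for Pfkfb4, −0.37 to 0.037 for Eno3 and −0.15 to 0.049 for Pdk2. The cause of these turns was not tested.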
